A study of Mus musculus with 29 samples.

Results

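The astrocyte ribosome pulldown was compared with the RNA that it left unbound in 6 of the 29 brain RNA-seq samples of the series, which are the positive and the negative fraction of 3 mice with the animal numbers 290, 293 and 294. All were Aldh1l1-cre/ERT2+; NuTRAP+ mice, in which the promoter of the astrocyte gene Aldh1l1 drives a tamoxifen-inducible Cre recombinase. After recombination the NuTRAP allele tags ribosomes with a GFP-labelled ribosomal protein L10a and nuclei with a biotinylated, mCherry-labelled envelope protein. Every mouse, in either fraction, had been given tamoxifen as a young adult over consecutive days. Males and females were used in the study, and the labels do not give the sex of a mouse. A brain hemisphere was homogenised with cycloheximide, the supernatant was incubated with an antibody against GFP, and the RNA eluted from the magnetic beads was the positive fraction. RNA left in the supernatant was the negative fraction, so both fractions of an animal come from the same homogenate and were paired by animal number. The negative fraction therefore holds RNA of all cells, astrocytes included where their ribosomes were not captured, and the comparison is of bound with unbound RNA. The same fractions of 6 Cx3cr1-cre/ERT2+; NuTRAP+ mice, in which the tagged ribosomes are those of microglia and related macrophages, were used to test whether a rise differed between the lines. In the paper's validation, brains of the Cx3cr1 line were collected longer after tamoxifen than those of the Aldh1l1 line. Line and time since tamoxifen may therefore differ together.

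Astrocytes take up glutamate, GABA and potassium around synapses, turn glutamate into glutamine for neurons, store the glycogen of the brain and supply lipoproteins. They contact vessels with end feet that carry aquaporin-4, and are joined to each other by connexin gap junctions. Translating ribosome affinity purification (TRAP) reads the messenger RNAs that are held on the ribosomes of one cell type, without separating the cells.

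The 6 libraries held between 8782235 and 25137834 gene counts, the lowest totals being the negative and positive fractions of mouse 290. Levels are given as CPM (counts scaled to 1000000 per library) on library sizes scaled by the trimmed mean of M-values (TMM), and 3 values in a row are those of mice 290, 293 and 294. The 10 most abundant genes took 2.92% to 3.64% of the counts in the negative and 7.24% to 7.91% in the positive fraction. On a principal component analysis the fractions separated on the first component (76.5% of the variance) and mouse 290 from the other 2 mice on the second (17%). The label of the pulldown was checked first with 4 astrocyte markers. Gfap, the glial intermediate filament protein, was at 246, 199 and 199 CPM in the negative and 2552, 2752 and 2601 CPM in the positive fraction. Aldh1l1, the folate enzyme whose promoter drives the Cre, rose 9.73-fold and Aqp4, the water channel of the end feet, 8.45-fold. Fxyd1 (phospholemman, a regulator of the sodium pump, chr7:31051678-31055656, GRCm38) was at 28.1, 18.9 and 23.0 CPM in the negative and 705, 332 and 361 CPM in the positive fraction, the largest rise among genes with more than 20 counts in all 6 libraries and the same direction in 3 of 3 mice. For each of the 4 markers the positive values lay above all negative values. In such bulk fractions, a larger share of astrocyte RNA and more RNA of a gene per astrocyte cannot be told apart.

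Of 13319 genes tested, 4927 (37.0%) were higher and 4503 (33.8%) lower in the pulldown (edgeR quasi-likelihood test with the mouse as a block, Benjamini-Hochberg adjustment over all genes tested, threshold 0.05), and the median log2 fold change was 0.03. Without mouse 290, which stood apart, 5060 were higher and 5088 lower. With the mouse left out of the model, 3569 genes were higher and 3299 lower, and of these 3568 and 3299 were called in the same direction with the mouse in it. Scaling by total counts alone moved the median of all genes by -0.35 and gave 3362 higher and 6369 lower genes, so the share of calls that were higher was 34.5% instead of 52.2%. More than 5-fold higher were 644 genes (4.84%) and more than 5-fold lower 129 genes (219 without mouse 290). On total counts alone these were 399 and 317 genes, so both counts, and what is drawn from the 644 below, depend on the scaling. The study's list of astrocyte genes from sorted cells and its list from ribosomal tagging, the latter chosen in part on these samples, together held 249 of the genes tested. Of the 644 genes, 437 (67.9%) were on neither list. The list from ribosomal tagging holds only genes common to every ribosomal profiling study that the paper compared. The paper also gives a longer list of genes shared by only some of those studies, which was not used, so this share depends on the lists chosen. The genes described below by their roles come from lists of functions that hold genes of the astrocyte lists as well as others.

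**Figure D1:**
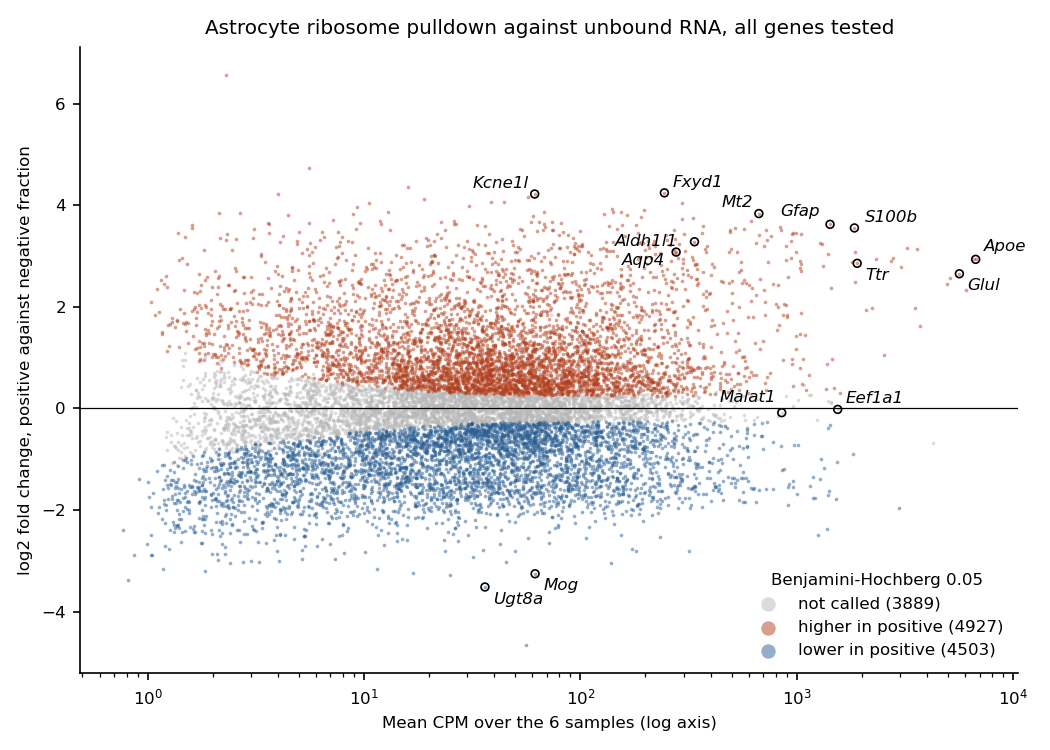
Each point is 1 of the 13319 genes tested, with its mean CPM over the 6 samples on a log axis against the log2 fold change between the positive and negative fraction. Red points were higher (4927), blue points lower (4503) and grey points not called (3889), and the circled genes are named in the text.

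The 15 largest rises among genes on neither astrocyte list, with more than 20 counts in all 6 libraries and the same direction in every mouse, ran from 3.65 to 4.07 on the log2 scale. Of these, Pxmp2, a channel of the peroxisome membrane, was at 3.42, 3.87 and 3.26 CPM in the negative and 70.0, 51.6 and 52.0 CPM in the positive fraction (log2 fold change 3.98 ± 0.16 SE, adjusted p = 1.17e-08). Tst, the mitochondrial sulphur transferase rhodanese, was at 30.2, 20.5 and 22.3 CPM in the negative and 509.8, 285 and 318 CPM in the positive fraction (log2 fold change 3.90 ± 0.12 SE, adjusted p = 6.87e-09). In both genes the lowest positive value was many times the highest negative value. Mdk, the heparin-binding growth factor midkine, was at 28.8, 14.1 and 12.4 CPM in the negative and 406, 179 and 214 CPM in the positive fraction (log2 fold change 3.86 ± 0.13 SE, adjusted p = 6.87e-09). Apln, the precursor of the peptide apelin, was at 26.8, 27.8 and 23.8 CPM in the negative and 375, 358 and 336 CPM in the positive fraction (log2 fold change 3.77 ± 0.11 SE, adjusted p = 6.87e-09). Midkine was highest in both fractions of mouse 290, while the apelin precursor varied little between mice within either fraction. Cxcl14, a chemokine, was at 91.8, 89.0 and 82.7 CPM in the negative and 1319, 1094 and 1025 CPM in the positive fraction (log2 fold change 3.70 ± 0.12 SE, adjusted p = 6.87e-09). The same set held Fam181b (log2 fold change 3.87), the transcript 2900052N01Rik (3.80), Oaf (3.79), C1qtnf5 (3.67), the lipid droplet protein gene Cideb (3.66), the G protein subunit gene Gng5 (3.66), the claudin gene Cldn19 (3.65), and Mt2 and Hopx, which are described with their lists. C1qtnf5 and Olfr287 (an olfactory receptor gene, log2 fold change 4.07) overlap another protein-coding gene on the same strand, and Olfr287 has close relatives in its family, so that reads may be shared and their values are uncertain.

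Compared per kilobase of exon, the positive fraction was led by Apoe, the main apolipoprotein made by astrocytes, at 5516 CPM per kb against 762 in the negative fraction. It ranked 1 among all genes with an exon length in the positive and 7 in the negative fraction. Cst3 (cystatin C, a protease inhibitor) followed at 4177 CPM per kb and Cpe (carboxypeptidase E, a prohormone-processing enzyme) at 3874. Mt3, Sparcl1, Glul, Ttr, S100b and Mt2 were next among the genes more than 5-fold higher, between 3136 and 2126 CPM per kb. S100b, a calcium-binding protein, moved from rank 135 in the negative to rank 8 in the positive fraction, and Mt2 from rank 197 to rank 9.

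Enzymes of metabolism were mostly higher. Of 223 tested members of the 8 metabolic lists, 180 were higher and 18 lower, against 37.0% and 33.8% of all genes tested, with a median log2 fold change of 1.54. Genes of glutamate, glutamine and GABA metabolism moved both ways. Glul (glutamine synthetase, which turns glutamate and ammonia into glutamine, chr1:153899945-153909714) was at 1639, 1553 and 1452 CPM in the negative and 9001, 10573 and 9643 CPM in the positive fraction (log2 fold change 2.65 ± 0.12 SE, adjusted p = 2.46e-08). Every positive value of Glul was above all 3 negative values, and the mice differed little within a fraction. Glud1 (glutamate dehydrogenase, 2.59), Prodh (proline dehydrogenase, 3.04) and Abat (GABA transaminase, 2.10) were among the 8 of 14 members that rose. The GABA-making enzymes Gad1 (-1.16) and Gad2 (-1.42) were among the 6 that fell.

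Of 22 tested genes of serine, glycine, folate and sulphur amino acid metabolism, 13 rose and 4 fell, and 7 were more than 5-fold higher. The shares of all genes were 37.0%, 33.8% and 4.84%. Sardh (sarcosine dehydrogenase) was at 11.7, 11.4 and 9.58 CPM in the negative and 116, 153 and 143 CPM in the positive fraction (log2 fold change 3.67 ± 0.14 SE, adjusted p = 1.03e-08). Gldc, the decarboxylase of the glycine cleavage system, was at 19.8, 21.3 and 18.7 CPM in the negative and 166, 199 and 182 CPM in the positive fraction (log2 fold change 3.20 ± 0.12 SE, adjusted p = 7.62e-09). For both genes the mice differed little within a fraction and the fractions did not overlap. Cbs, which starts the route from homocysteine to cysteine, rose by 3.27 and Phgdh, the first enzyme of serine synthesis, by 2.77 on the log2 scale. Dao, the oxidase of D-amino acids including D-serine, was at 15.7, 5.24 and 11.9 CPM in the negative and 135, 60.9 and 174 CPM in the positive fraction (log2 fold change 3.52 ± 0.16 SE, adjusted p = 1.86e-08), lowest in mouse 293 in both fractions. In amino acid breakdown, 21 of 24 tested members rose and 1 fell (18 and 2 on total counts alone). The member that fell was Bcat1, the cytosolic branched-chain aminotransferase, at 139, 123 and 129.8 CPM in the negative and 34.4, 51.5 and 56.0 CPM in the positive fraction (log2 fold change -1.48 ± 0.16 SE, adjusted p = 8.17e-06), while the mitochondrial form Bcat2 rose by 1.16.

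Fatty acid oxidation was the metabolic list with the highest median, 2.03, and 32 of its 34 tested members rose. Of all genes 37.0% were higher and 33.8% lower. Acaa2, the last enzyme of mitochondrial beta-oxidation, was at 23.0, 18.7 and 16.0 CPM in the negative and 198, 162 and 150.4 CPM in the positive fraction (log2 fold change 3.15 ± 0.11 SE, adjusted p = 7.62e-09). Cpt1a, which loads fatty acids for import into mitochondria, was at 22.1, 24.0 and 23.8 CPM in the negative and 104, 177 and 158 CPM in the positive fraction (log2 fold change 2.63 ± 0.14 SE, adjusted p = 6e-08). Its brain form Cpt1c, the member that fell, was at 90.6, 81.3 and 91.3 CPM in the negative and 44.3, 48.3 and 47.1 CPM in the positive fraction (log2 fold change -0.91 ± 0.11 SE, adjusted p = 2.85e-05). The 3 mice moved alike in each of these genes, and the fractions did not overlap. Acadl (3.00) and Hadhb (2.54) also rose. In fatty acid and sterol synthesis 28 of 33 members rose and 2 fell. The desaturases Fads1 and Fads2, which make polyunsaturated fatty acids, both rose by 3.09, and Elovl2, the elongase of their long chains, by 2.98, whereas Elovl4 fell (-0.95). The cholesterol synthesis genes Hmgcs1 (1.15) and Cyp51 (1.31) rose by less.

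Of 40 genes of glycolysis, glycogen and the pentose phosphate path, 30 rose, 1 fell and 9 were not called, and on total counts alone 26 rose and 5 fell. The shares of all genes were 37.0% higher and 33.8% lower. Ppp1r3g and Ppp1r3c, targeting subunits that bring protein phosphatase 1 to glycogen, rose by 3.88 and 3.33, and the glycogen phosphorylases Pygm and Pygb by 2.97 and 2.55. Ppp1r3g was at 9.65, 8.27 and 8.37 CPM in the negative and 109, 136 and 136 CPM in the positive fraction (log2 fold change 3.88 ± 0.14 SE, adjusted p = 8.32e-09). The aldolases differed. Aldoc, the brain form, was at 644, 601 and 721 CPM in the negative and 5785, 5715 and 5921 CPM in the positive fraction (log2 fold change 3.15 ± 0.12 SE, adjusted p = 9.24e-09). Aldoa, the ubiquitous form, was at 1589, 1242 and 1307 CPM in the negative and 1758, 1398 and 1367 CPM in the positive fraction and its fractions overlapped (log2 fold change 0.13 ± 0.11 SE, adjusted p = 0.3). Eno2, the neuronal enolase, was the 1 that fell with the scaling used here (-1.56). Of 11 genes of taurine, creatine and polyamine metabolism 8 rose and 2 fell, with a median of 0.62, and on total counts alone 5 rose and 2 fell, with a median of 0.28. The cytosolic creatine kinase Ckb was higher (1.62) and the mitochondrial Ckmt1 lower (-1.69).

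Of 45 antioxidant and detoxification genes 40 rose, 1 fell and 17 were more than 5-fold higher, and on total counts alone 33 rose and 3 fell. The shares of all genes were 37.0% higher, 33.8% lower and 4.84% more than 5-fold higher. Gstm1, a glutathione transferase, was at 123, 140.3 and 147 CPM in the negative and 1510.3, 1624 and 1554 CPM in the positive fraction (log2 fold change 3.52 ± 0.12 SE, adjusted p = 6.87e-09). Prdx6 (peroxiredoxin 6, 3.45) and Aldh1a1 (an aldehyde dehydrogenase that makes retinoic acid, 3.52) rose as well, and Mgst1, a membrane glutathione transferase, rose (3.19) where Mgst3 fell (-1.08). The metallothioneins, small cysteine-rich proteins that bind zinc and copper, rose together. Mt1 was at 259, 123 and 124 CPM in the negative and 2662, 1409 and 1385 CPM in the positive fraction (log2 fold change 3.45 ± 0.12 SE, adjusted p = 6.87e-09). Mt2 was at 96.4, 74.2 and 89.5 CPM in the negative and 1553, 1077 and 1119 CPM in the positive fraction (log2 fold change 3.84 ± 0.13 SE, adjusted p = 6.87e-09). Mt3 was at 604, 246 and 236 CPM in the negative and 6433, 1815 and 1781 CPM in the positive fraction (log2 fold change 3.07 ± 0.14 SE, adjusted p = 2.06e-08). All 3 genes were highest in both fractions of mouse 290, Mt3 most of all, and in all 3 the fractions did not overlap.

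The 3 metallothionein genes lie next to each other on chromosome 8, and the 250 bases before the start of each are printed because the genes moved together. The sequences are RefSeq's for GRCm38.p6, plus strand, at chr8:94178839-94179088 for Mt1, chr8:94172368-94172617 for Mt2 and chr8:94152357-94152606 for Mt3. Capitals mark matches to the core of the metal response element, searched as TGCGCNC and TGCACNC on both strands.
Mt1: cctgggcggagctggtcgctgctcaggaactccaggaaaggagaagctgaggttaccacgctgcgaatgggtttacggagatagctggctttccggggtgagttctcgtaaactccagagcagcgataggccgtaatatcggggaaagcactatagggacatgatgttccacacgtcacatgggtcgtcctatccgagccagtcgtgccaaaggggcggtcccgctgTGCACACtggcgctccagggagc
Mt2: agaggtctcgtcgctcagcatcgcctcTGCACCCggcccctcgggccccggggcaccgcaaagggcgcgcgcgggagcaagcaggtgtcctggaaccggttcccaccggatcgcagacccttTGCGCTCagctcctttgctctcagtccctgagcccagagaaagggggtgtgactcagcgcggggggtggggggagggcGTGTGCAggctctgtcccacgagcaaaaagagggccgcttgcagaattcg
Mt3: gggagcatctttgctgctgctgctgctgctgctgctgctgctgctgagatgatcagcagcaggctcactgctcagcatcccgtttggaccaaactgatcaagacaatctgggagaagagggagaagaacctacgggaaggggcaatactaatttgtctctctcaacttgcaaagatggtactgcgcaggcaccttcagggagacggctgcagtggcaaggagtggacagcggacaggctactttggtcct
Within these windows Mt1 held 1 match, Mt2 3 matches and Mt3 0 matches. Each window ends at the start annotated by RefSeq and bases outside it were not searched, so the counts do not describe whole promoters. Of 32851 promoter windows of the same length, 21.4% held at least 1 match and 5.17% at least 2, so single matches were common, and a match is a resemblance of letters and no measure of binding.

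**Figure D2:**
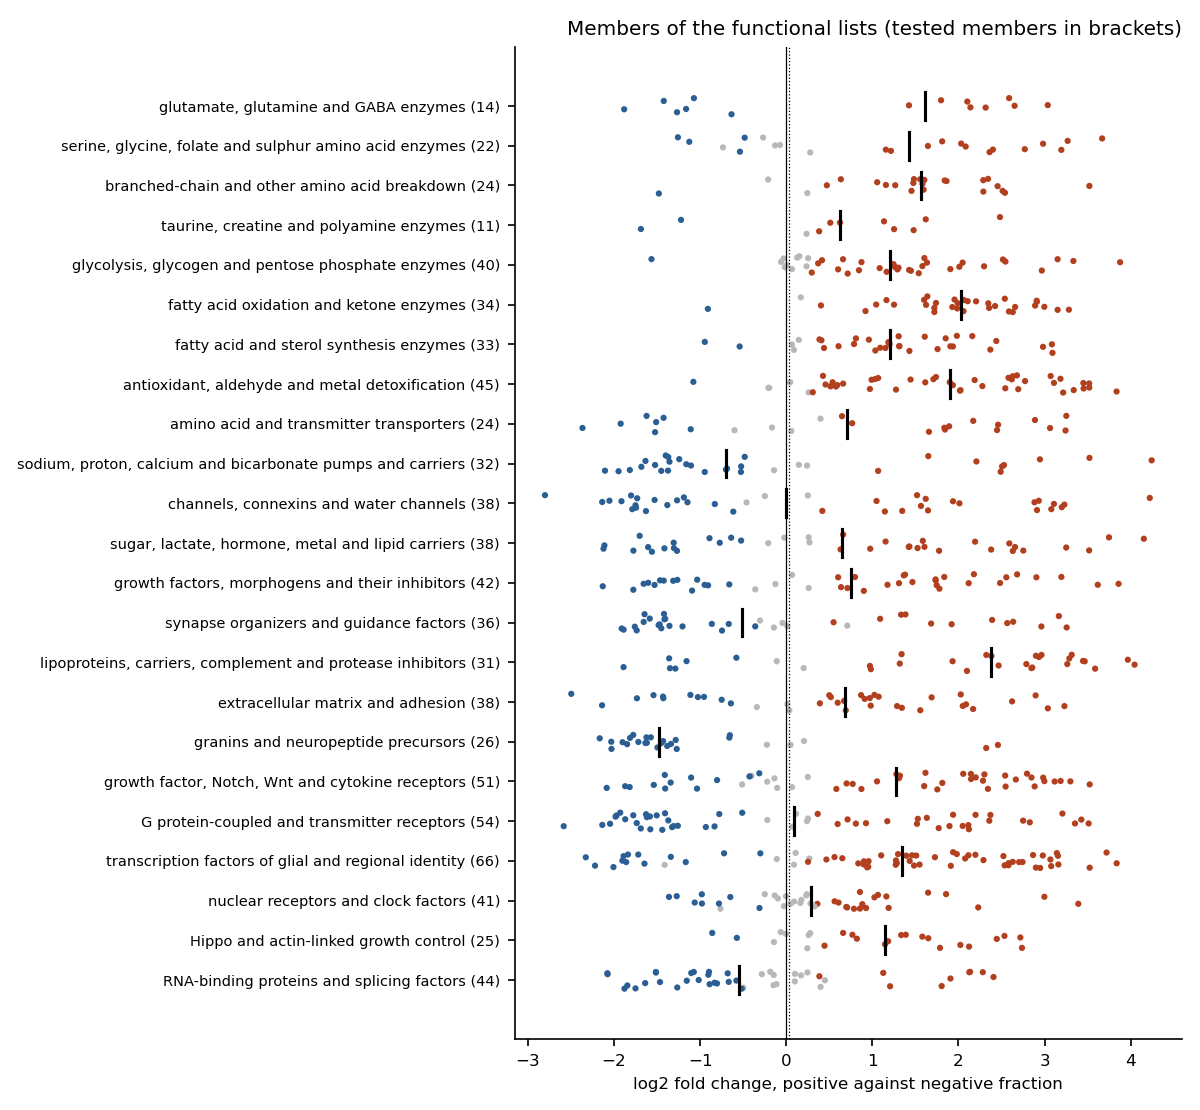
The log2 fold change of every tested member of the 23 functional lists, 1 point per gene, red where higher, blue where lower and grey where not called. Black bars are list medians and the dotted line is the median of all genes, 0.03. The metabolic lists in the upper rows lie mostly to the right, while pumps, granins and RNA-binding proteins lie mostly to the left.

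Of 132 tested members of the 4 transport lists 60 rose and 58 fell, beside 37.0% and 33.8% of all genes. Among amino acid and transmitter transporters 13 of 24 rose and 7 fell. Slc6a11, the GABA transporter GAT-3 of astrocytes, was at 209, 254 and 236 CPM in the negative and 1479.5, 3144 and 2322 CPM in the positive fraction (log2 fold change 3.25 ± 0.16 SE, adjusted p = 3.1e-08). Slc1a2 and Slc1a3, the glutamate transporters GLT-1 and GLAST, rose by 2.45 and 2.89, and Slc1a1, the neuronal glutamate transporter EAAC1, fell to 25.4, 31.0 and 28.3 CPM in the positive fraction from 101, 109 and 110.2 CPM in the negative (log2 fold change -1.92 ± 0.11 SE, adjusted p = 1.04e-07). Slc7a10, a carrier of small neutral amino acids including D-serine, rose by 3.24 and Slc38a3, the glutamine exporter SNAT3, by 3.06. The glycine transporter Slc6a9 rose by 2.46.

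The list of pumps and ion carriers was the transport list with the lowest median, -0.69, with 9 members higher and 20 lower of 32. The shares of all genes were 37.0% higher and 33.8% lower. The bicarbonate carrier Slc4a4 (2.53), the pump subunit Atp1b2 (2.49) and the scaffold Slc9a3r1 (3.52) rose, and Slc8a2, a sodium-calcium exchanger, fell (-2.10). Of 38 channel genes 18 rose and 17 fell, with a median of 0.00 that became -0.35 on total counts alone. Kcne1l, a potassium channel accessory subunit, was at 7.78, 5.86 and 5.40 CPM in the negative and 129.8, 113 and 107 CPM in the positive fraction (log2 fold change 4.22 ± 0.13 SE, adjusted p = 6.87e-09). The potassium channel Kcnj10 (Kir4.1, 2.91) and the astrocyte connexins Gja1 (2.88) and Gjb6 (3.23) rose, while the calcium channel Cacna1e (-2.05) fell.

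Of 38 carriers of sugars, lactate, hormones, metals and lipids 20 rose and 14 fell, beside 37.0% and 33.8% of all genes. Slc25a34, a mitochondrial carrier, was at 6.85, 5.72 and 5.73 CPM in the negative and 119.6, 101 and 105 CPM in the positive fraction (log2 fold change 4.15 ± 0.13 SE, adjusted p = 6.87e-09). Slc25a18, the mitochondrial glutamate carrier, rose by 3.75, Slc14a1, a urea transporter, by 3.52, and Slc39a12, a zinc importer, by 3.25. The neuronal vesicle zinc transporter Slc30a3 fell (-2.12). Slc2a1, the glucose transporter GLUT1, was at 70.9, 78.5 and 63.4 CPM in the negative and 146, 171 and 155 CPM in the positive fraction (log2 fold change 1.15 ± 0.11 SE, adjusted p = 3.2e-06). Slc2a3, the neuronal glucose transporter GLUT3, was at 133, 165 and 170.3 CPM in the negative and 30.6, 52.1 and 57.2 CPM in the positive fraction (log2 fold change -1.77 ± 0.13 SE, adjusted p = 4.93e-07). In both genes the fractions did not overlap. Slco1c1, a thyroid hormone transporter, rose by 2.19.

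**Figure D3:**
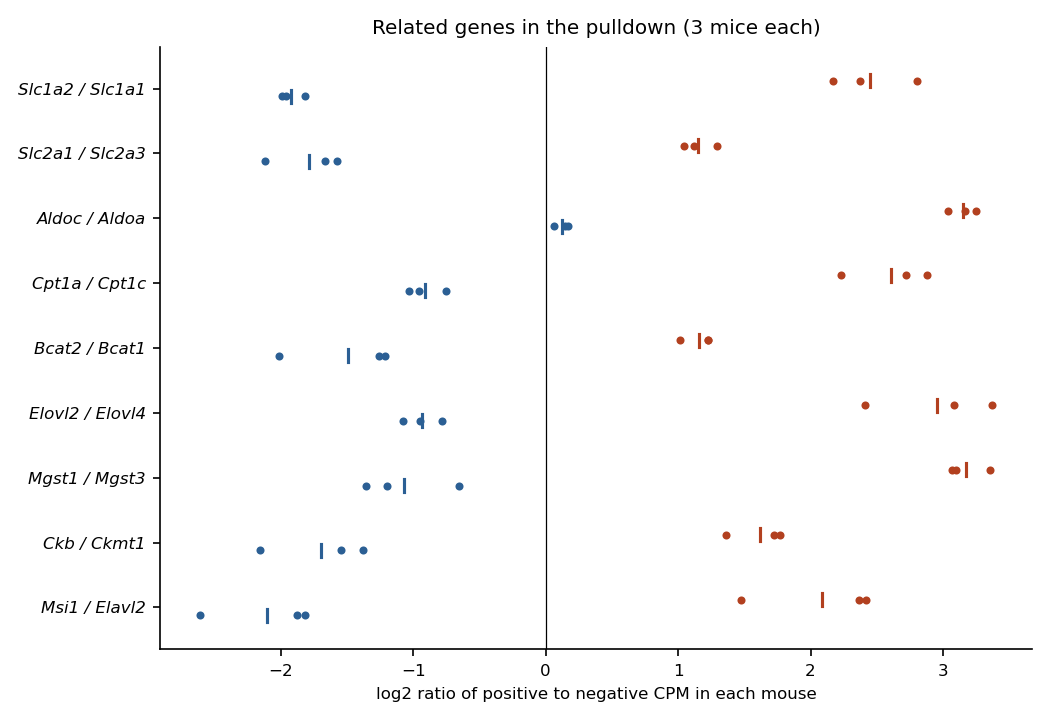
The log2 ratio of positive to negative CPM in each of 3 mice for pairs of related genes, the first named gene in red and the second in blue, with the mean of the 3 mice as a bar. The pairs were set side by side after their values were seen. In 8 of the 9 pairs the first gene lies above 0 and the second below 0 in every mouse, and Aldoa lies close to 0.

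Of 173 tested secreted factors 85 were higher and 71 lower, beside 37.0% and 33.8% of all genes. Lipoproteins, carriers, complement and protease inhibitors had the highest median of all functional lists, 2.38, with 23 of 31 higher and 17 more than 5-fold higher. Of all genes 4.84% were more than 5-fold higher. Timp4, an inhibitor of metalloproteinases, was at 43.2, 26.4 and 31.3 CPM in the negative and 699, 396 and 579 CPM in the positive fraction (log2 fold change 4.05 ± 0.12 SE, adjusted p = 6.87e-09). Its gene overlaps Syn2 on the opposite strand, as do the genes of Glul, Htra1, Folr1, Slc7a10, Lgi4, Nfia and others named here with their neighbours. Reads were aligned with their strand, but how the authors assigned reads to overlapping genes is not given in the sources used here, so such pairs are uncertain. Ctsd, Egfl7 and Elavl3, named below, each overlap another protein-coding gene on the same strand, and their values are uncertain too. Htra1, a secreted serine protease, was at 145, 127 and 129 CPM in the negative and 1247, 1387 and 1352 CPM in the positive fraction (log2 fold change 3.32 ± 0.12 SE, adjusted p = 8.22e-09). Agt, angiotensinogen, rose by 3.45, Lcat, which esterifies cholesterol on lipoproteins, by 3.59, Mfge8, a bridge for phagocytosis, by 3.26 and Clu, clusterin, by 2.90. Serpini1, the neuronal inhibitor neuroserpin, fell (-1.89), and Cp, ceruloplasmin, was at 9.86, 11.8 and 9.37 CPM in the negative and 8.25, 11.0 and 9.35 CPM in the positive fraction with overlapping fractions (log2 fold change -0.11 ± 0.18 SE, adjusted p = 0.597), though it was called lower on total counts alone (adjusted p = 0.0382).

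Of 42 growth factors, morphogens and their inhibitors 24 rose and 14 fell, beside 37.0% and 33.8% of all genes. After midkine the largest rises were of Sfrp5, a secreted Wnt inhibitor, at 8.92, 4.50 and 2.93 CPM in the negative and 77.0, 55.2 and 51.9 CPM in the positive fraction (log2 fold change 3.62 ± 0.19 SE, adjusted p = 4.49e-08), and of Gdf10, a BMP family member. Gdf10 was at 19.8, 10.3 and 25.2 CPM in the negative and 122, 101 and 304 CPM in the positive fraction (log2 fold change 3.20 ± 0.17 SE, adjusted p = 6.45e-08), highest in both fractions of mouse 294. Igfbp2, which binds insulin-like growth factors, rose by 2.91, Tgfb2 by 1.47 and Vegfa by 0.90, and Nrg3, a neuregulin, fell (-2.13). Synapse organizers and guidance factors fell more often than they rose, 19 against 12 of 36. Those that rose included Sparcl1 (hevin, 2.57), Sparc (2.96), the glypican Gpc5 (3.26), Lgi4 (3.17), Chrdl1 (2.64) and Thbs4 (2.39). Nptx2, a neuronal pentraxin, was at 69.6, 72.1 and 67.0 CPM in the negative and 18.7, 18.9 and 17.8 CPM in the positive fraction (log2 fold change -1.91 ± 0.11 SE, adjusted p = 1.2e-07), and C1ql3 fell as well (-1.89). In the matrix list 24 of 38 rose and 11 fell. Brevican (Bcan), a proteoglycan of perineuronal matrix, was at 308, 251 and 201 CPM in the negative and 2485, 2462 and 2103 CPM in the positive fraction (log2 fold change 3.23 ± 0.13 SE, adjusted p = 1e-08), and the adhesion molecule Vcam1 rose by 2.90.

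Granins and neuropeptide precursors fell in 21 of 26 cases and rose in 2, beside 33.8% lower and 37.0% higher of all genes. The 2 that rose were Scg3 and Cpe. Scg3, secretogranin III, was at 278, 212 and 229 CPM in the negative and 1342, 1290.0 and 1297 CPM in the positive fraction (log2 fold change 2.46 ± 0.12 SE, adjusted p = 2.7e-08). Cpe, the processing enzyme named above, was at 2681, 1779 and 1714 CPM in the negative and 11172, 10002 and 9149.5 CPM in the positive fraction (log2 fold change 2.32 ± 0.13 SE, adjusted p = 7.75e-08). Scg2, secretogranin II, was at 340.4, 295 and 274 CPM in the negative and 119.9, 140.1 and 116 CPM in the positive fraction (log2 fold change -1.27 ± 0.12 SE, adjusted p = 2.66e-06). Mice did not differ in direction in any of the 3 genes. The tachykinin precursor Tac1 (-2.17) and proenkephalin (Penk, -1.85) fell, and Vip and Npy, precursors of vasoactive intestinal peptide and neuropeptide Y, were not called (0.05 and -0.22). Npy was called lower on total counts alone (-0.57, adjusted p = 0.00129) and among genes with at least 100 counts (-0.31, adjusted p = 0.0266), and Vip was called higher without mouse 290 (0.31, adjusted p = 0.0476).

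Of 51 growth factor, Notch, Wnt and cytokine receptors 31 rose, 12 fell and 13 were more than 5-fold higher, beside 37.0%, 33.8% and 4.84% of all genes. Fgfr3, a fibroblast growth factor receptor, was at 95.3, 95.3 and 82.7 CPM in the negative and 878, 1209.9 and 1069 CPM in the positive fraction (log2 fold change 3.52 ± 0.14 SE, adjusted p = 9.37e-09). Axl, a receptor for apoptotic cell ligands, was at 35.1, 40.5 and 37.1 CPM in the negative and 277, 459.8 and 388 CPM in the positive fraction (log2 fold change 3.30 ± 0.13 SE, adjusted p = 1.15e-08). Both receptors were lowest in mouse 290 among the positive libraries and still far above every negative library. The Wnt receptor Fzd9 (3.19), the neurotrophin receptor Ntrk2 (2.80) and the epidermal growth factor receptor Egfr (2.67) rose, Gfra2 fell (-1.87), and Lifr was not called (log2 fold change 0.25 ± 0.12 SE, adjusted p = 0.0871), except without mouse 290 (adjusted p = 0.00715) and with low counts kept (adjusted p = 0.0444). Of 54 G protein-coupled and transmitter receptors 24 rose and 25 fell, beside 37.0% and 33.8% of all genes, with a median of 0.09 that became -0.25 on total counts alone. S1pr1, the sphingosine-1-phosphate receptor, was at 128, 111 and 110.2 CPM in the negative and 1339.6, 1316 and 1318 CPM in the positive fraction (log2 fold change 3.51 ± 0.12 SE, adjusted p = 6.87e-09). The orphan receptor Gpr37l1 (3.43), the adenosine receptor Adora2b (3.35), the endothelin receptor Ednrb (2.83) and the glutamate receptor Grm3 (2.12) rose, and the dopamine receptor Drd1a (-2.58) and muscarinic receptor Chrm1 (-2.14) fell.

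Among regulators, 48 of 66 transcription factors of glial and regional identity rose and 13 fell, with 19 more than 5-fold higher, beside 37.0%, 33.8% and 4.84% of all genes. Hopx, a homeodomain-only cofactor, was at 49.2, 30.2 and 42.9 CPM in the negative and 739.9, 355 and 559 CPM in the positive fraction (log2 fold change 3.72 ± 0.12 SE, adjusted p = 6.87e-09). Dbx2, a homeobox factor, was at 24.1, 13.5 and 13.8 CPM in the negative and 305, 216 and 198 CPM in the positive fraction (log2 fold change 3.84 ± 0.12 SE, adjusted p = 6.87e-09). Id3, an inhibitor of helix-loop-helix factors, was at 28.0, 22 and 17.7 CPM in the negative and 410.0, 213 and 194 CPM in the positive fraction (log2 fold change 3.52 ± 0.14 SE, adjusted p = 1.04e-08). All 3 were higher in mouse 290 than in mice 293 and 294 within the positive fraction. Sox2 (3.07), Sox9 (2.95), Lhx2 (2.98), Emx2 (3.08), Rfx4 (3.16) and the Notch target Hes5 (2.90) rose, and the neuronal factors Neurod1 (-2.33) and Tbr1 (-2.22) fell. Nfia, a nuclear factor needed to make astrocytes, was at 79.3, 75.1 and 96.8 CPM in the negative and 537, 261 and 237 CPM in the positive fraction (log2 fold change 1.94 ± 0.25 SE, adjusted p = 0.000213), higher in every mouse, with mouse 290 well above the others in the positive fraction. Without mouse 293 its log2 fold change was 2.01 at an adjusted p of 0.0801, and with low counts kept 1.97 at 0.0773, so the call was lost while the fold did not shrink.

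Of 41 nuclear receptors and clock factors 19 rose, 8 fell and 14 were not called, beside 37.0% higher and 33.8% lower of all genes, with a median of 0.28 that became -0.07 on total counts alone, where 17 rose and 15 fell. Nr2e1, the orphan receptor Tlx, was at 9.86, 11.4 and 7.70 CPM in the negative and 77.0, 128 and 96.5 CPM in the positive fraction (log2 fold change 3.39 ± 0.15 SE, adjusted p = 1.82e-08). Ppara, the receptor that controls fatty acid oxidation genes, was at 4.46, 4.54 and 4.64 CPM in the negative and 21.4, 46.0 and 41.4 CPM in the positive fraction (log2 fold change 3.00 ± 0.21 SE, adjusted p = 3.51e-07). Both were several times higher in each positive library than in any negative library. The clock output factor Dbp rose by 2.23 and Nr1d1 by 1.19, the latter from a locus that overlaps Thra on the opposite strand. Rorb was at 161, 82.9 and 61.4 CPM in the negative and 1007, 164 and 154 CPM in the positive fraction (log2 fold change 1.65 ± 0.34 SE, adjusted p = 0.00767), and its fractions overlapped between mice. The size of the rise of Rorb, an orphan nuclear receptor, turned on mouse 290, being 1.12 on the log2 scale without it. The call was lost, at a fold no smaller, without mouse 294 (log2 fold change 1.82, adjusted p = 0.253), with low counts kept (1.68, adjusted p = 0.143) and without the block (2.12, adjusted p = 0.0544). In the Hippo pathway, which limits growth through the cofactors YAP and TAZ, 17 of 25 rose and 2 fell (16 and 4 on total counts alone). Yap1 was at 29.7, 27.7 and 31.8 CPM in the negative and 138, 174 and 173 CPM in the positive fraction (log2 fold change 2.45 ± 0.12 SE, adjusted p = 3.59e-08), and Wwtr1, the gene of TAZ, rose by 2.74. Of 44 RNA-binding proteins 9 rose and 23 fell, beside the same shares of all genes. Qk (quaking, 1.81), Msi1 (musashi, 2.14), Ptbp1 (1.21) and Zfp36l2 (2.41) rose, and the neuronal Elavl2 (-2.08), Elavl3 (-1.10) and the splicing factor Srrm4 (-2.07) fell.

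**Figure D4:**
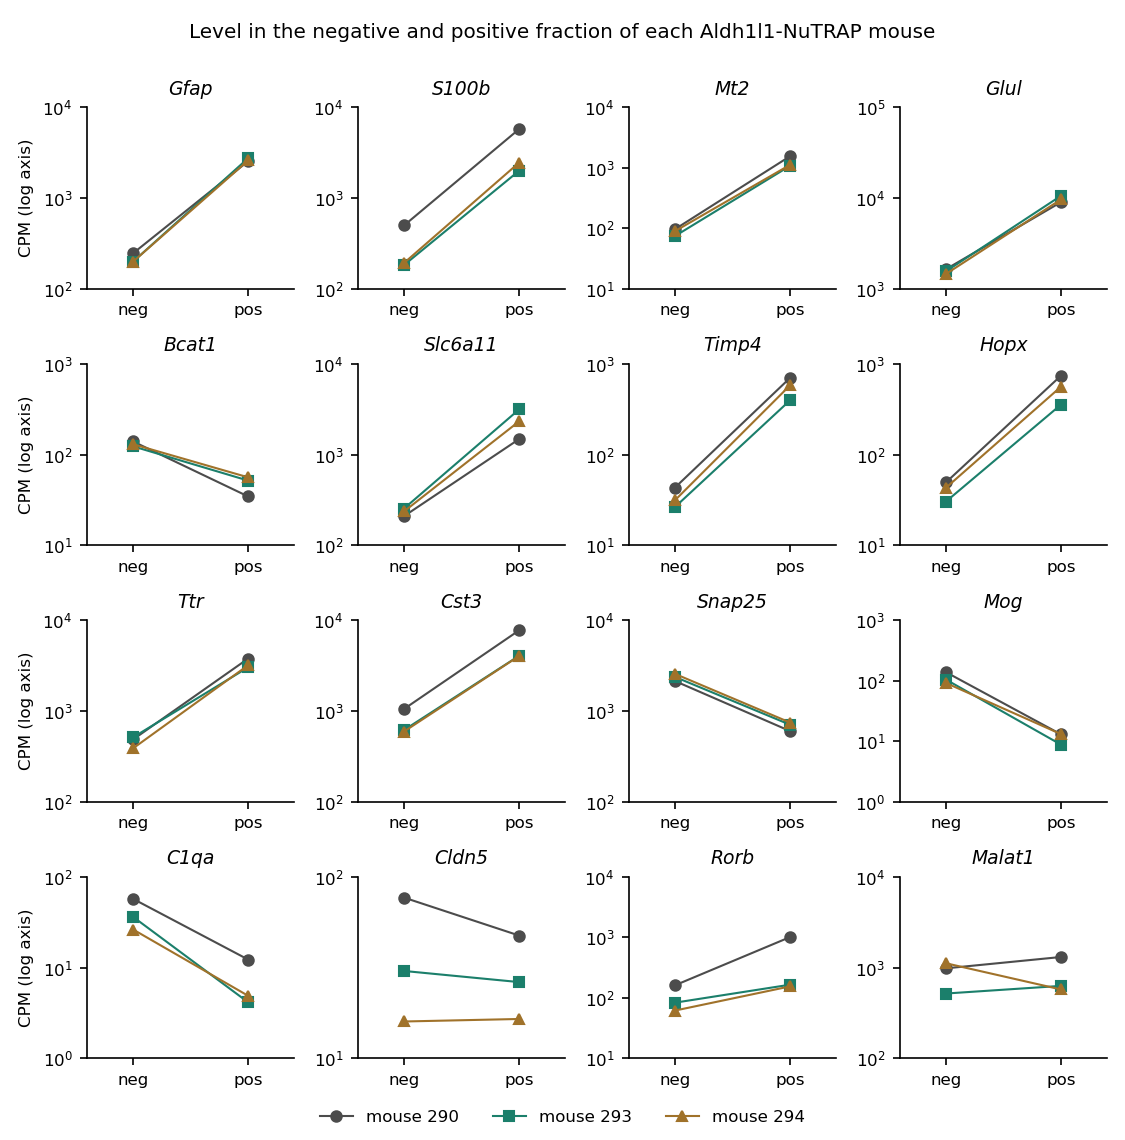
CPM on a log axis in the negative and positive fraction of each Aldh1l1-NuTRAP mouse for 16 named genes, with a line joining the fractions of a mouse. The lines of astrocyte, choroid plexus and metal-binding genes run up, those of Snap25, Mog, C1qa and Bcat1 run down, and those of Cldn5 and Malat1 do not run the same way in all mice. Rorb is much higher in mouse 290 than in the others in the positive fraction.

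Of 215 tested members of the 12 lists for other cells 134 fell, 49 rose and 32 were not called, where 33.8% of all genes fell and 37.0% rose, and the median was -1.16. All 24 tested pan-neuronal genes fell, and their summed level was 23596 to 24156 CPM in the negative and 8345 to 9279 CPM in the positive fraction. Snap25, a synaptic vesicle fusion protein, was at 2139.7, 2376 and 2566 CPM in the negative and 601, 706 and 746 CPM in the positive fraction (log2 fold change -1.79 ± 0.11 SE, adjusted p = 1.43e-07). Mog, a surface protein of myelin, was at 139, 105 and 92.0 CPM in the negative and 13, 8.79 and 13.1 CPM in the positive fraction (log2 fold change -3.25 ± 0.16 SE, adjusted p = 3.13e-08). C1qa, a complement chain of microglia, was at 57.1, 36.1 and 26.2 CPM in the negative and 12.2, 4.13 and 4.87 CPM in the positive fraction (log2 fold change -2.58 ± 0.19 SE, adjusted p = 4.87e-07). In each of these genes every positive value was below every negative one, and none reached 0. Ugt8a, an enzyme of myelin lipid synthesis, fell the most among genes with more than 20 counts in all 6 libraries and the same direction in every mouse (-3.51).

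A minority of genes from other cells did not fall. The clearest group was that of the choroid plexus, the secretory epithelium of the ventricles. All 18 genes of that list were tested and rose, beside 37.0% of all genes, with a median of 2.43. Their summed level was 756 to 916 CPM in the negative and 4401 to 4525 CPM in the positive fraction. Of the 18, 13 had more than 20 counts in all 6 libraries, so the count that rose may be set in part by the filter. The list was written with earlier results of these data known. Ttr (transthyretin, the thyroid hormone carrier that the epithelium secretes) was at 486, 513 and 388 CPM in the negative and 3791, 3035 and 3201 CPM in the positive fraction (log2 fold change 2.86 ± 0.13 SE, adjusted p = 2.36e-08). Folr1, a folate receptor, was at 4.67, 4.36 and 4.35 CPM in the negative and 22.1, 31.7 and 26.1 CPM in the positive fraction (log2 fold change 2.59 ± 0.18 SE, adjusted p = 3.55e-07). Kl (klotho, a co-receptor for a phosphate-regulating hormone) was at 13.7, 18.5 and 15.9 CPM in the negative and 32.2, 89.7 and 76.9 CPM in the positive fraction (log2 fold change 1.99 ± 0.19 SE, adjusted p = 4.81e-06). Every positive library was above every negative library for the 3 genes, and mouse 290 was lowest for Folr1 and Kl among the positive libraries. Kcne2, a potassium channel subunit (2.74), 1500015O10Rik (2.53) and the BMP and Wnt antagonist Sostdc1 (2.43) rose too. In the Cx3cr1-NuTRAP mice 0 of the 18 genes rose and 9 fell, where 12.1% of all 13983 genes tested were higher and 7.88% lower in the positive fraction. Ttr there had a median of 962 CPM in the negative (lowest 803, highest 1283) and 806 CPM in the positive fraction (lowest 196, highest 944), and its log2 fold change was 2.86 in the astrocyte and -0.68 in the Cx3cr1 line (difference 3.52 ± 0.43 SE, adjusted p = 2.91e-05).

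Of 15 tested ependymal and cilium genes 7 rose and 4 fell, beside 37.0% and 33.8% of all genes, and 7 of the 15 had more than 20 counts in all 6 libraries. The list had a summed level of 58.0 to 70.9 CPM in the negative and 114 to 158 CPM in the positive fraction. Foxj1, the master regulator of motile cilia, was at 11.7, 18.8 and 8.16 CPM in the negative and 45.4, 38.5 and 44.1 CPM in the positive fraction (log2 fold change 1.78 ± 0.24 SE, adjusted p = 9.17e-05). Rarres2 (2.10), Tekt1 (2.02), Dynlrb2 (1.75) and Rsph1 (1.27) rose as well, while Ccdc153 was at 6.54, 4.89 and 4.94 CPM in the negative and 8.54, 3.97 and 2.78 CPM in the positive fraction with overlapping fractions (log2 fold change -0.25 ± 0.28 SE, adjusted p = 0.436). The 4 that fell, named here after their values were seen, were the sperm and cilium gene Spag6 (-1.06) and the axonemal dynein genes Dnahc5 (-0.91), Dnahc9 (-0.98) and Dnahc11 (-1.85). None of the 4 had more than 20 counts in all 6 libraries, so the split of this list may be set in part by the filter. The call of Spag6 was lost without mouse 290 (log2 fold change -0.73, adjusted p = 0.0584) and, at about the same fold, without mouse 294 (-1.05, adjusted p = 0.0506) and without the block (-1.03, adjusted p = 0.067). That of Dnahc5, whose fractions overlapped, was lost without mouse 293 (log2 fold change -0.50, adjusted p = 0.371). At folds nearer the one given, it was also lost without mouse 294 (-0.79), without the block (-0.96), in DESeq2 (-0.87) and with both lines in 1 fit (-0.89). The call of Foxj1 was lost without mouse 290 (log2 fold change 1.66, adjusted p = 0.141). Of 15 fibroblast and meningeal genes 9 rose and 5 fell, but on total counts alone 4 rose and 6 fell, so the balance turned with the scaling. Islr was at 22.7, 14.7 and 13.9 CPM in the negative and 164, 63.9 and 65.2 CPM in the positive fraction (log2 fold change 2.39 ± 0.15 SE, adjusted p = 1.95e-07) and Fbln1, a matrix glycoprotein, rose by 1.90, whereas the collagen gene Col1a1 (-1.48) and Dcn, decorin (-1.25), fell. Of 21 endothelial genes 2 rose, 3 fell and 16 were not called, whereas on total counts alone 2 rose and 11 fell. Cldn5, the tight junction claudin of brain vessels, was at 76.8, 30.3 and 15.9 CPM in the negative and 47.4, 26.3 and 16.5 CPM in the positive fraction (log2 fold change -0.29 ± 0.15 SE, adjusted p = 0.102), with fractions that overlapped and mouse 290 highest in both. It was called lower without mouse 294 (adjusted p = 0.0282), on total counts alone and among genes with at least 100 counts. The endothelial lipid carriers Mfsd2a and Pltp were the 2 that rose. Mfsd2a, the carrier of docosahexaenoic acid, was at 14.6, 19.2 and 17.2 CPM in the negative and 87.3, 119.8 and 115 CPM in the positive fraction (log2 fold change 2.66 ± 0.12 SE, adjusted p = 1.66e-08). Among pericyte and smooth muscle genes Notch3 (2.06) and Pdgfrb (1.62) rose, as did the smooth muscle myosin gene Myh11 (1.69), named after its value was seen, and 8 of 13 fell. Myh11 was not called with both lines in 1 fit, at about the same fold (1.68, adjusted p = 0.0649). Of these 13 genes 8 had more than 20 counts in all 6 libraries.

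**Figure D5:**
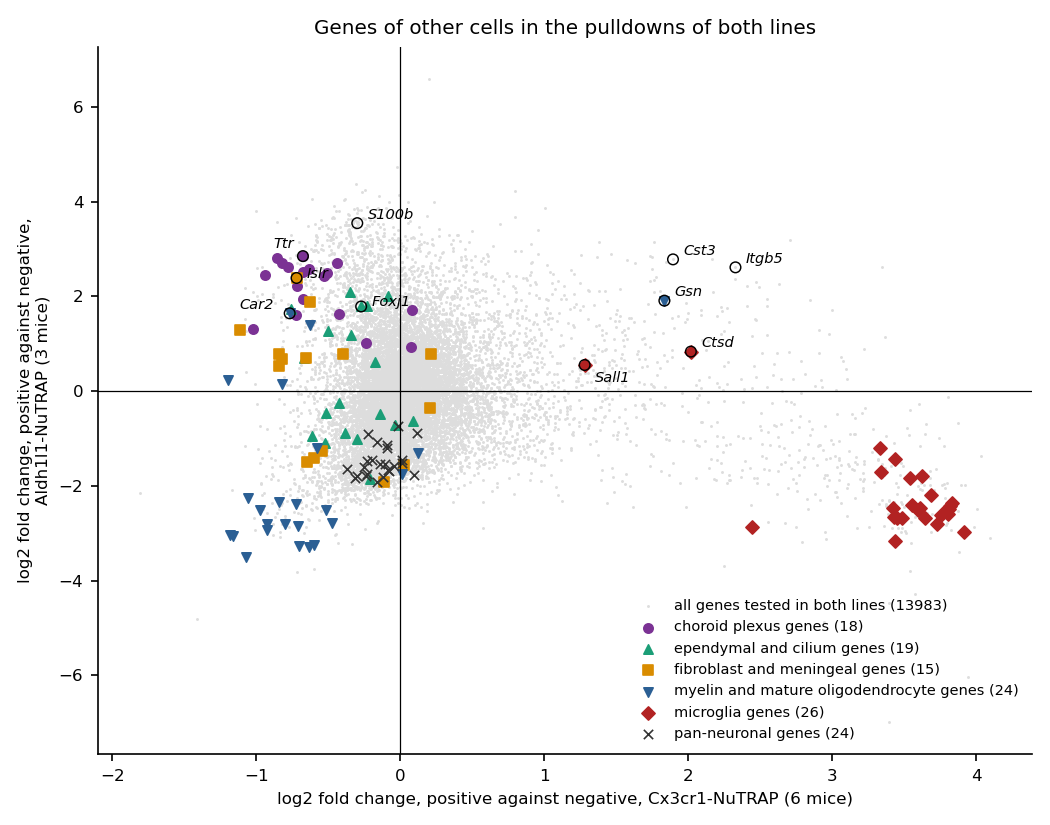
Log2 fold changes between fractions in the Cx3cr1-NuTRAP (6 mice, horizontal axis) and Aldh1l1-NuTRAP mice (3 mice, vertical axis) for 13983 genes, from the fit of both lines together. Coloured points are lists of other cells, and circled genes are named in the text. Most choroid plexus genes lie at the upper left, most microglia genes at the lower right, and Cst3, Itgb5 and Gsn at the upper right.

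Within the lists of sorted cells taken from the study, 39 of 213 tested microglia genes, 37 of 193 oligodendrocyte genes and 1 of 98 neuron genes rose, and 141, 136 and 93 fell, beside 37.0% higher and 33.8% lower of all genes. More than 20 counts in all 6 libraries were present for 129, 175 and 94 of them. A gene that passed the filter through 1 fraction alone leans towards a difference, so part of each split may be set by the filter. From the microglia list, Cst3 was at 1053, 617 and 594 CPM in the negative and 7755, 4062 and 4046 CPM in the positive fraction (log2 fold change 2.79 ± 0.12 SE, adjusted p = 1.44e-08). In the Cx3cr1 line it rose as well (1.89), with a median of 810.5 CPM in the negative (lowest 777, highest 1194) and 3138 CPM in the positive fraction (lowest 2261, highest 4747). The rise of Cst3 was still larger in the astrocyte pulldown (difference 0.89 ± 0.24 SE, adjusted p = 0.00745). Itgb5, an integrin subunit, was at 58.7, 41.1 and 44.2 CPM in the negative and 282, 317 and 277 CPM in the positive fraction (log2 fold change 2.62 ± 0.14 SE, adjusted p = 5.61e-08) and rose by 2.33 in the Cx3cr1 line, a difference of 0.28 ± 0.24 SE, adjusted p = 0.327. Ucp2, an uncoupling protein of mitochondria, likewise rose in both lines, by 2.37 and 1.76 (difference 0.59 ± 0.29 SE, adjusted p = 0.0978). For Itgb5 and Ucp2 a difference between lines did not pass the test. Cables1, which binds cyclin-dependent kinases, rose by 3.16 against 0.48 in the Cx3cr1 line (difference 2.67 ± 0.17 SE, adjusted p = 1.16e-07). Of all 13983 genes 3789 (27.1%) had a higher and 4326 a lower ratio of positive to negative fraction in the astrocyte than in the Cx3cr1 line.

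From the oligodendrocyte list, S100b (chr10:76253836-76261319) was at 498, 182 and 192 CPM in the negative and 5754, 1999.5 and 2457 CPM in the positive fraction (log2 fold change 3.55 ± 0.12 SE, adjusted p = 6.87e-09). It overlaps Dip2a on the opposite strand, and the Cx3cr1 pulldown showed no rise of it (-0.30, difference 3.84 ± 0.34 SE, adjusted p = 1.8e-06). Csrp1, a LIM domain protein, was at 275, 269 and 247 CPM in the negative and 1888, 1759.6 and 1755 CPM in the positive fraction (log2 fold change 2.77 ± 0.11 SE, adjusted p = 1.2e-08), and Cmtm5 (2.75), Pla2g16 (2.53) and Ccdc13 (2.30) rose as well. Of the 24 genes of the myelin list written for this work 3 rose and 19 fell, beside 37.0% and 33.8% of all genes. The 3 were Gsn, gelsolin (1.92), Car2, carbonic anhydrase II (1.65), and Cryab, a small heat shock protein (1.41). Cnp, the myelin phosphodiesterase, was at 512, 468 and 397 CPM in the negative and 544, 444 and 546 CPM in the positive fraction (log2 fold change 0.16 ± 0.12 SE, adjusted p = 0.272) and its fractions overlapped. Of 18 genes of oligodendrocyte precursors 4 rose and 12 fell (2 and 14 on total counts alone). Olig1, a lineage transcription factor, was at 192, 178 and 166 CPM in the negative and 547, 572 and 454 CPM in the positive fraction (log2 fold change 1.55 ± 0.11 SE, adjusted p = 3.62e-07). Olig2 (0.56) and Ptprz1 (1.00) were also among those that rose, and Pdgfra (-2.18) among those that fell. From the neuron list the 1 gene that rose was Gria1, an AMPA receptor subunit, at 354, 397 and 412 CPM in the negative and 537, 708 and 1042 CPM in the positive fraction (log2 fold change 0.93 ± 0.14 SE, adjusted p = 0.000142), highest in the positive fraction of mouse 294. Among 25 microglia genes written for this work Ctsd, cathepsin D (0.84), and the transcription factor Sall1 (0.57) rose and 23 fell. Of the 25, 17 had more than 20 counts in all 6 libraries, so the count that fell may likewise be set in part by the filter. The call of Sall1 was lost without the block at about the same fold (log2 fold change 0.56, adjusted p = 0.077). It was also lost without mouse 293 (0.38, adjusted p = 0.0821) and on total counts alone (0.22, adjusted p = 0.23). That of Olig2 was lost on total counts alone (0.21, adjusted p = 0.1).

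RNAs linked to the method itself were looked at last, and their counts stand beside 37.0% higher and 33.8% lower of all genes. Rpl10a, the ribosomal protein that carries the GFP tag, was at 144, 110.1 and 99.4 CPM in the negative and 549, 573 and 411 CPM in the positive fraction (log2 fold change 2.12 ± 0.12 SE, adjusted p = 9.39e-08), and reads of the tagged transgene and the native gene cannot be told apart. Of 79 cytosolic ribosomal protein genes, Rpl10a included, 25 rose, 7 fell and 47 were not called, with a median of 0.15 that became -0.20 on total counts alone, where 7 rose and 26 fell. Without the block 6 rose and 0 fell. Among 17 nuclear and other non-coding RNAs 11 fell and 2 rose (13 and 1 on total counts alone). Meg3 was at 4309, 5147 and 4613 CPM in the negative and 1499, 1123 and 1049 CPM in the positive fraction (log2 fold change -1.95 ± 0.15 SE, adjusted p = 6.66e-07). Malat1 was at 979, 517 and 1114 CPM in the negative and 1306, 627 and 573 CPM in the positive fraction, higher in mice 290 and 293 and lower in mouse 294 (log2 fold change -0.08 ± 0.25 SE, adjusted p = 0.781). Of 23 immediate early genes 17 fell and 1 rose. Egr1 was at 290.1, 392 and 356 CPM in the negative and 67.9, 97.8 and 78.3 CPM in the positive fraction (log2 fold change -2.09 ± 0.11 SE, adjusted p = 4.09e-08). Gadd45g, the 1 that rose, was at 47.6, 23.4 and 21.0 CPM in the negative and 146, 99.5 and 99.4 CPM in the positive fraction (log2 fold change 1.98 ± 0.14 SE, adjusted p = 3.55e-07). Among the 100 most abundant genes, the 10 smallest changes included those of the elongation factor genes Eef1a1 (log2 fold change -0.02 ± 0.11 SE, adjusted p = 0.887) and Eef2 (log2 fold change 0.06 ± 0.11 SE, adjusted p = 0.638), whose fractions overlapped. On total counts alone both were called lower (adjusted p = 0.0113 and 0.0274).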

How the data were processed

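RNA was eluted from the anti-GFP beads (positive fraction) or taken from the supernatant (negative fraction), and strand-specific poly(A) libraries were made from each. Per the labels and methods the authors trimmed reads, aligned them by strand to mm10 in Strand NGS and deposited a table of 36172 gene rows. Its raw columns are estimated counts (82.4% of nonzero values are not whole), and its other columns are the authors' log2 values after DESeq scaling, which were not used here. How reads were assigned to overlapping genes is not given in the sources used here.

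Raw values were rounded and tested with the edgeR 4.0.16 quasi-likelihood test in R 4.3.3 (TMM scaling, robust, 2-sided, Benjamini-Hochberg over all genes tested). A gene was tested where every library of at least 1 fraction had more than 20 counts, which left 440 genes that passed through the positive and 753 through the negative fraction alone. The mouse was a block, since both fractions of an animal come from 1 homogenate. Deviations of the paired fractions from their group means correlated with r = 0.69, 0.48 and 0.57 across genes, and those of mice 293 and 294 with each other's by 0.31 and 0.44, so that the pairing rests on the shared homogenate. SE is the log2 fold change divided by the square root of F. The difference between lines was the interaction of fraction and line in 1 fit of 18 libraries of 9 mice. CPM per kb used GENCODE M21 exon unions for 21674 rows. In simulated counts 100% of 4-fold and 97% of 2-fold changes were recovered, with 3.0% false calls. There only a small part of the genes changed, as many up as down, and all genes had the same dispersion. Most genes were called in the real data, so these figures give no error rate for the calls and do not test the scaling. No replicates agreed within sampling noise.

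Genes were named by rule, being the 4 markers, the largest rises and falls with more than 20 counts in all 6 libraries and the same direction in 3 of 3 mice, the highest levels per length, and chosen or extreme members of each list. Some genes that the rule names are not reported here. Exceptions are said to be chosen after their values were seen. Members and lists were chosen with earlier results of these data known, so the list counts are descriptions and no set test was run.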

Additional observations from a re-analysis of the deposited data

Results flagged for a closer look

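The pulldown ratio (positive over negative fraction) was set side by side in the 3 Aldh1l1-NuTRAP and 6 Cx3cr1-NuTRAP mice with the edgeR interaction test, and of 13983 genes 3789 (27.1%) had a higher and 4326 (30.9%) a lower ratio in the astrocyte line. The genes of other cells given below passed that test, except Ccdc153 and Gsn. Most were taken because they rose in the astrocyte pulldown, so they lean towards a higher ratio there and do not stand for their lists, whose counts are given beside them. The values are differences of log2 fold changes, astrocyte minus Cx3cr1 line. No cause of these differences was tested.

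Of 18 choroid plexus genes 18 had a higher ratio in the astrocyte line, with differences of 3.52 for Ttr, 3.51 for Kcne2, 3.38 for Sostdc1, 3.21 for Folr1, 3.20 for 1500015O10Rik and 2.63 for Kl. Of 19 ependymal and cilium genes 7 had a higher and 1 a lower ratio. The higher ones differed among others by 2.49 for Dynlrb2, 2.45 for Rarres2, 2.10 for Tekt1, 2.06 for Foxj1 and 1.77 for Rsph1, the lower one was Dnahc11 (-1.65), and Ccdc153 differed by 0.17 (adjusted p = 0.758). Dnahc11 fell in the astrocyte pulldown, while the first 5 choroid plexus genes named and the first 5 ependymal genes named rose there and had a log2 fold change below 0 in the Cx3cr1 pulldown.

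Of 15 fibroblast and meningeal genes 9 had a higher ratio in the astrocyte line, among them Islr (3.11) and Fbln1 (2.51), and 4 a lower ratio, among them Col3a1 (-1.81), Col1a1 (-0.85) and Dcn (-0.72). Of 14 pericyte and smooth muscle genes 2 were higher, Notch3 (2.48) and Pdgfrb (2.13), and 4 lower. Of 22 endothelial genes 3 were higher, among them Mfsd2a (2.85) and Pltp (1.57), and 9 lower, among them Egfl7 (-1.33). Of 24 myelin genes 4 were higher and 19 lower, of 18 precursor genes 4 and 11, and of 194 genes on the study's oligodendrocyte list 40 and 115. The lower ones included Mog (-2.57), Ugt8a (-2.44) and Pdgfra (-1.22), and the higher ones differed by 0.97 for Cnp, 3.84 for S100b, 3.21 for Cmtm5, 3.14 for Csrp1, 2.98 for Pla2g16, 2.41 for Car2, 2.33 for Olig1, 2.27 for Ccdc13, 2.03 for Cryab, 1.48 for Ptprz1 and 1.25 for Olig2. Of 99 genes on the neuron list 1 was higher, Gria1 (1.18), and 93 were lower. All 24 pan-neuronal genes were lower, Snap25 by -1.50 among them. Of 238 genes on the microglia list 7 were higher and 208 lower, C1qa by -6.40 among them. Cables1 differed by 2.67 and Cst3 by 0.89, higher in the astrocyte line, while Ctsd and Sall1 differed by -1.18 and -0.73, with the larger rise in the Cx3cr1 line. Gsn rose in the astrocyte line (1.92) and was at a log2 fold change of 1.83 in the Cx3cr1 line, where it was not called (adjusted p = 0.0578), and the difference (0.08 ± 0.94 SE, adjusted p = 0.95) did not pass the test.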

How the results depend on the processing

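The calls rest on 3 mice, and mouse 290 had the shallowest libraries and stood apart. Of 2139 values of named genes under alternatives 2097 had the direction and side of the threshold given above, 20 lost the call, 10 gained one and 12 changed sign. Of 880 list counts 829 lay within 1.5 times the count given, and 13 of the 51 that did not arose under scaling by total counts alone. A model that left out the replicate block called 3569 genes higher and 3299 lower (652 and 119 by more than 5-fold), and the difference between lines called 3572 and 4179 genes. Genes more than 5-fold higher numbered 399, and more than 5-fold lower 317, on total counts alone. The more than 5-fold lower genes numbered 239 without a filter, 76 with at least 100 counts, and 140 to 219 with 1 mouse left out (219 without mouse 290). No gene whose sign changed was called in the fit reported above. On total counts alone the log2 fold change was -0.22 for Aldoa, -0.19 for Cnp, -0.29 for Eef2, -0.0963 for Lifr and -0.30 for Vip. With at least 100 counts it was -0.0267 for Eef2 and -0.0381 for Vip, and without a filter 0.0169 for Eef1a1. With 1 mouse left out, Ccdc153 ranged from -0.59 (without 290) to 0.0378 (without 294), Malat1 from -0.38 to 0.35 (likewise), Eef1a1 from -0.11 (without 290) to 0.0562 (without 293) and Vip from -0.24 (without 293) to 0.31 (without 290). The causes of these moves were not tested. Genes under the count minimum were not tested.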

Other observations

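Lrrc17 and Grifin were chosen after their values were seen, because they lie at the edges of the plot of all genes. Lrrc17, a secreted leucine-rich repeat protein, was at 251, 39.9 and 28.4 CPM in the negative and 17.1, 0.161 and 1.04 CPM in the positive fraction (log2 fold change -4.65 ± 0.56 SE, adjusted p = 0.00206). Mouse 290 was highest in both fractions, the call was lost without mouse 294 at about the same fold (log2 fold change -4.67, adjusted p = 0.157), and the gene overlaps Fbxl13 on the opposite strand. Grifin, a relative of the galectins, was at 0.208, 0.00 and 0.00 CPM in the negative and 7.57, 2.36 and 3.63 CPM in the positive fraction. It was thus at or near 0 in every negative library and low but detected in every positive one, and no fold is given.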
